A study of Mus musculus with 4 samples.

Results

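The regions described here are 724 stretches of mouse intergenic DNA that carried a CUT&Tag peak for Ruvbl2 in each of 4 libraries. All deposited peaks on chromosomes 1 to 19 were merged wherever they overlapped by at least 1 bp, which gave 690059 merged regions. A merged region was kept when it held a peak of every library, lay outside all protein-coding genes and was over 10000 bp from the nearest end of one. Of all merged regions, 4233 held a peak of all 4 libraries (0.613%), and 724 of these met the distance limit. Members were thus chosen by the presence of a peak in each list and by position, so that presence is a description and gets no test.

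Both groups came from bone marrow of mice with 1 floxed and 1 wild-type allele of the nucleoporin gene Nup214 (Nup214fl/+). The 2 haematopoietic stem cell (HSC) libraries were made from LSK cells sorted as CD150+ and CD48-. The 2 leukaemia stem cell (LSC) libraries were made from MLL-AF9-driven disease in mice of the same Nup214 genotype, sorted as Lin-, Sca-1-, c-Kit+, CD16/32+ and CD34+, a gate that normal granulocyte-monocyte progenitors also meet. Groups were read from the titles, since the LSC libraries carry the same stem cell entry under cell type as the HSC libraries. The labels used here give no age, no treatment, no Cre driver, no vector for MLL-AF9 and no statement that replicates came from separate mice, so p-values measure only the spread between these libraries. No control library with another antibody is named, and the host species of the Ruvbl2 antibody is not stated beside the anti-rabbit secondary that was used.

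Ruvbl2 is an ATPase that forms rings with Ruvbl1 and works inside the chromatin remodellers INO80 and SRCAP, the TIP60 acetyltransferase complex and a chaperone complex. In CUT&Tag, an antibody brings a transposase to chromatin and the enzyme cuts and tags the DNA around it. Remodellers are known at promoters and at distal regulatory DNA such as enhancers, which can lie far from the gene they act on. Intergenic DNA also holds repeated sequence, such as satellite arrays, ribosomal RNA genes and nuclear copies of mitochondrial DNA, where reads can pile up because the assembly holds fewer copies than the cell does.

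Each HSC list held 161655 (replicate 1) or 286107 peaks (replicate 2), and each LSC list 216077 (replicate 1) or 210541 peaks (replicate 2). The number of reads behind them is unknown. Over all autosomal peaks the median fold, the peak caller's ratio of pileup at the summit to background, was 13.4, 5.99, 11.3 and 9.11 in that order, which is used for values from all 4 libraries below. The fold has no common scale across libraries. A region was therefore also given a rank in each library, from 1 for the strongest to 4233, by its strongest peak among all regions held by all 4 libraries. Peak names follow one scheme in replicate 1 of both groups and another in replicate 2. Peaks on chromosome Y numbered 1468 and 2015 in the libraries of replicate 1 and 16 and 26 in those of replicate 2, so libraries of the same number share more than a number, and its part in the results was not tested.

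Sequence could be shown for the members that hold the start of a non-coding transcript. Of 32851 promoter windows in the RefSeq table (GRCm38.p6, the coordinates of mm10), each 300 bases from 250 before to 50 after a start site, 39 windows of 34 genes touched 33 members. In 5 of these windows the summit of the strongest peak lay within 500 bp of the start site in all 4 libraries. The windows printed are a pair from those 5, that of Malat1, whose member had the highest lowest-library fold of the 33, and 1 from the group of regions past Cebpb. They run 5′ to 3′ on the transcript's strand, and capitals mark, on either strand, the CCAAT box, the GC box GGGCGG, the TATA box TATAAA, the E-box CACGTG, the CREB element TGACGTCA and the ETS element CCGGAAGT.
Chaserr (chr7:73558346-73558645, mm10, minus strand): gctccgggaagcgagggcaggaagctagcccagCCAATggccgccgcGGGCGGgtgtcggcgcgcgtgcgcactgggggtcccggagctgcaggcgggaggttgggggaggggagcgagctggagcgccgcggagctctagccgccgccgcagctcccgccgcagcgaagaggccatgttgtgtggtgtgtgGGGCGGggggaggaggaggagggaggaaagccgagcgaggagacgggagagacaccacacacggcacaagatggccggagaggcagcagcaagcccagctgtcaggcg
D130051D11Rik (chr15:85634346-85634645, mm10, plus strand): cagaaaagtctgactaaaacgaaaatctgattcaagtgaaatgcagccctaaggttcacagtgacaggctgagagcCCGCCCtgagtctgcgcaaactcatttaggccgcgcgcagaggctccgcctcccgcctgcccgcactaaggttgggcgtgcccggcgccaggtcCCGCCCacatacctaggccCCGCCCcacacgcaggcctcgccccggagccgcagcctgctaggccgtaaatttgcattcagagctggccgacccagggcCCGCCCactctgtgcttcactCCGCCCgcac
Malat1 (chr19:5802623-5802922, mm10, minus strand): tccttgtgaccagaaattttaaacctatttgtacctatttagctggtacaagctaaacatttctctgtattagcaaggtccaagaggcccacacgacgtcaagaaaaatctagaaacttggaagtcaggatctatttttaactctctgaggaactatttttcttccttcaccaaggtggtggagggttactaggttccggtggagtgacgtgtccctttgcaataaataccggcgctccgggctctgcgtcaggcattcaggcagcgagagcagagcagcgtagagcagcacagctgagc
Gm14321 (chr2:167777241-167777540, mm10, plus strand): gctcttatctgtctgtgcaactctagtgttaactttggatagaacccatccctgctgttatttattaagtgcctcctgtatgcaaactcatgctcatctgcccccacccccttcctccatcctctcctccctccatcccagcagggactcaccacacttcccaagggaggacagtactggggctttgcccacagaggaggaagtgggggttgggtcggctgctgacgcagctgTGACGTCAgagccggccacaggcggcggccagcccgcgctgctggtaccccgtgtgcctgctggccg

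The Chaserr window held CCAAT and GGGCGG, that of D130051D11Rik held GGGCGG as its reverse complement CCGCCC, and that of Gm14321 held TGACGTCA, the element read by CREB-type factors. The summits of the member with the Gm14321 window lay away from its start site, at -2007, -1943, -3877 and -2470 bp. None of the letters searched occurred in the Malat1 window. Across the 39 windows TGACGTCA occurred in 3 (7.69%), against 1.79% of all 32851 windows, and all 3 lie in the member past Cebpb. The Gm14321 window overlaps a Gm32287 window (from 167777365) and holds the same site. Another Gm32287 window (from 167777878) lies apart from both and holds a separate copy. GGGCGG occurred in 17.9% of the 39 against 35.7% of all, CCAAT in 33.3% against 37.4%, TATAAA in 17.9% against 13.6%, CACGTG in 10.3% against 7.15% and CCGGAAGT in 2.56% against 3.89%. CACGTG and TGACGTCA read the same on both strands, none of the 6 motifs contains another, and copies of GGGCGG can overlap each other. A match is a description of letters. Median GC content was 53.7% in the 39 windows and 52.7% in all windows.

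At Chaserr, a long non-coding RNA (lncRNA) upstream of the chromatin remodeller gene Chd2, the member (chr7:73558020-73559391) had folds of 102, 47.2, 135 and 105. Its summits lay at -311, -311, -354 and -396 bp from the printed start site. In all 4 libraries the strongest signal was thus within a narrow stretch just upstream of the start. At D130051D11Rik the folds were 39.6, 55.4, 47.2 and 55.5, and summits lay on both sides of the start, from -86 bp to 293 bp. At Malat1, the abundant nuclear lncRNA of nuclear speckles, the member over the start site (chr19:5801526-5805258) had folds of 95.9, 71.5, 113 and 87.0, the highest of the group at that locus. Its summit lay 34 bp after the start in HSC replicate 1 and upstream in the other libraries, at -513, -1010 and -797 bp.

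Few distal regions were shared by all libraries, and those that were shared were wider than distal regions of fewer libraries. Distal merged regions numbered 297091, of which the 724 members make up 0.244%. The share was 0.632% of regions nearer than the limit (near intergenic), 0.466% of regions in gene bodies and 4.70% of regions at gene ends, defined as within 1000 bp of either end of a protein-coding gene. Of the distal regions, 258770 (87.1%) held a peak of 1 library, 33131 of 2 libraries and 4466 of 3. Median width was 403 bp in regions of 1 library and 1480 bp in the members. Regions of all 4 libraries in other positions were wider still. Their medians were 1585 bp in near intergenic, 1537 bp in gene-body and 1871 bp in gene-end regions. A wide region can be made by chaining peaks, so width is partly built into the rule. Median distance to the nearest protein-coding gene was 109179 bp in regions of 1 library, 83566 bp with 2, 57250.5 bp with 3 and 45873 bp in the members, so regions shared more widely lay closer to genes.

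**Figure D1:**
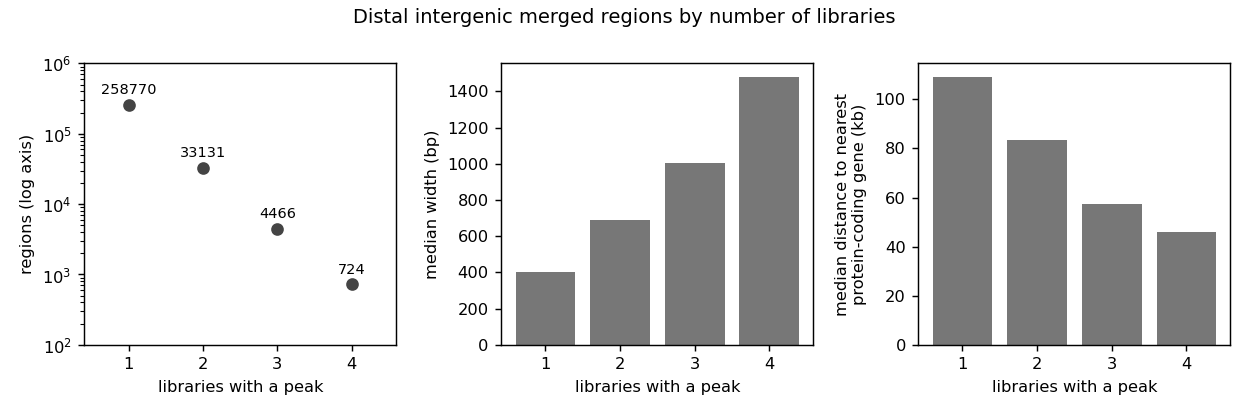
Number (left, log axis), median width in bp (middle) and median distance in kb to the nearest protein-coding gene (right) of distal intergenic merged regions, by the number of libraries with a peak. Regions in all 4 libraries number 724, with a median width of 1480 bp.

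Members were 354 to 38345 bp wide, with quartiles at 1114 and 2030 bp, and 536 were at most 2000 bp. They lay from 10046 bp to over 1000000 bp from a protein-coding gene. More than 50000 bp separated 345 of them (47.7%) from any such gene, more than 100000 bp separated 219 (30.2%), and 10 were beyond 1000000 bp. Their nearest genes were 583 different ones. Chromosome 8 held 67 members (9.25%) against 5.56% of all distal regions. Part of these stood in local groups of members no more than 50000 bp apart. An array of 5S ribosomal RNA genes held 12, and a group near Irf2bp2 held 6. Groups of 6, 6 and 4 lay between 20083174 and 20604092 on that chromosome. Just inside the distance limit stood regions near Tgfbi (10046 bp; folds 38.3, 15.5, 18.3 and 4.87), Gas8 (10089 bp) and Kcnj5 (10102 bp). Just outside it stood regions near Mmp19 (9995 bp; folds 37.2, 14.4, 16.1 and 42.1), Gcnt2 (9900 bp) and Purb (9874 bp).

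A merged region can hold peaks of all libraries that do not touch one another, in the members as in other regions. A base lay under peaks of all 4 libraries in 366 members (50.6%), and in the other 358 no base did. The share with a shared base was 47.5% in near intergenic, 46.9% in gene-body and 61.2% in gene-end regions held by all libraries. The summits of the strongest peaks spread over a median of 693 bp in all members, 472 bp in those with a shared base and 872.5 bp in those without. All 4 summits fell within 200 bp in 66 members (9.12%), against 6.19%, 4.93% and 10.4% in those classes. Median folds were 29.2, 15.8, 30.7 and 22.2 in members with a shared base and 14.5, 9.17, 14.6 and 11.2 in those without. The strongest peak was among the 20000 strongest of its library, in every library, in 121 members (16.7%), and 114 of these also had a shared base (15.7%, against 17.9% of the other regions held by all libraries).

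Shifting every list along its chromosomes showed how many members can arise without aligned positions. Each library was moved by its own circular offset on each chromosome, 100 times, and merged again. The count of distal regions with a peak of all 4 libraries then ranged from 143 to 201 with a median of 168, against 724 in place, which was 4.27 times the mean of the shifts. When the HSC and the LSC library of a replicate number were moved together, so that what they share stayed aligned, the count ranged from 351 to 507 with a median of 404.5. More than that shifted count remained in place, but the margin was far smaller than with each library moved alone. Over all positions, 4233 regions were found in place. Moving each library alone gave 297 to 401 of them (median 353), and moving replicate numbers together gave 734 to 951 (median 852.5). The excess in place was thus not particular to distal regions, and relative to the shifts it was smaller in them.

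Stricter counts stood further from their shifted values. Members with a base under all 4 libraries numbered 366 in place, 11 to 37 (median 22) with each library moved alone, and 67 to 104 (median 81.5) with replicate numbers moved together. From the 20000 strongest peaks of each library, 117 distal regions were found in place. Moving each library alone gave 0 to 2, and moving replicate numbers together gave 0 to 11 (median 4). Over all positions, these peaks gave 788 regions in place, 0 to 2 with each library moved alone and 2 to 18 with replicate numbers moved together. The counts are descriptions and no p was formed from them.

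**Figure D2:**
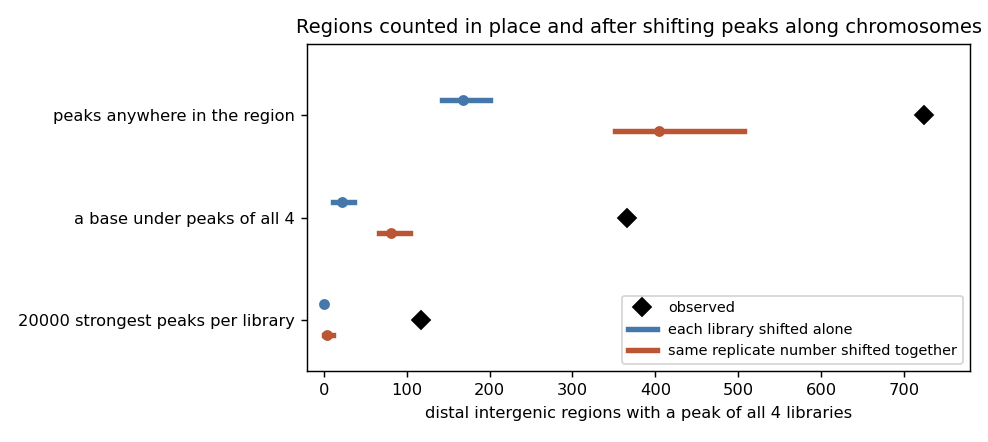
Distal intergenic regions with a peak of all 4 libraries, counted in place (diamonds) and after 100 circular shifts (lines from lowest to highest, dots at the median), for 3 ways of counting. Counts in place of 724, 366 and 117 lie beyond the highest shifted counts of 507, 104 and 11.

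Members ranked below gene-end regions in every library, and their medians lay close to those of gene bodies and near intergenic regions. Median folds of the members were 18.9, 11.6, 20.3 and 15.5, above the library medians for all peaks, as for any region chosen to have a peak in every list. Gene-end regions found in all libraries had median folds of 24.1, 22.1, 26.0 and 31.8. The median rank of the members was weaker than that of gene-end regions by 450.5, 1408, 402 and 1425.5 places, in 4 of 4 libraries. The mean difference was 921.5 places (SD 572, n = 4 libraries), and an exact two-sided sign-flip permutation test over libraries gave p = 0.13, the smallest it can give, so this design could not pass the usual threshold. Against gene bodies the mean difference was -14.75 places (exact p = 1) and against near intergenic regions 24.7 places (exact p = 0.875), both smaller than their spread across libraries. The gap to gene ends was much wider in the libraries of replicate 2 than in those of replicate 1.

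**Figure D3:**
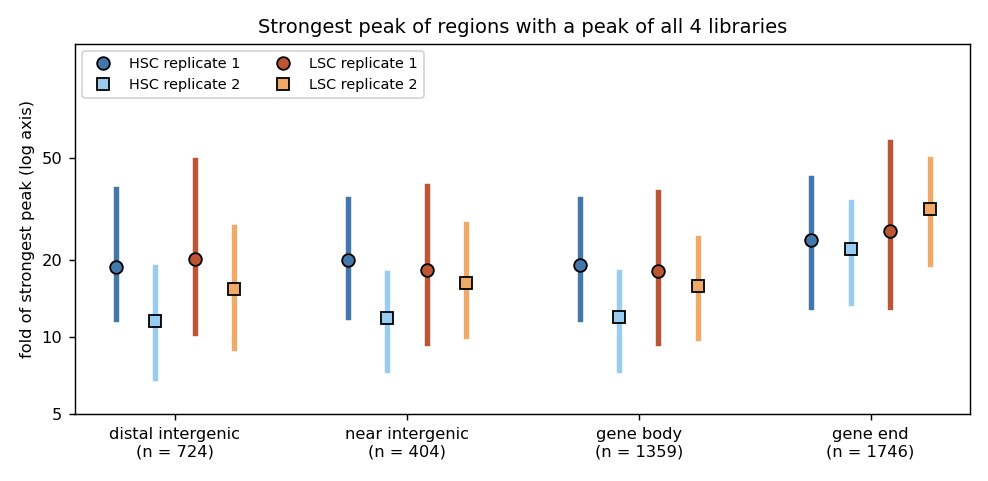
Fold of the strongest peak (log axis) in regions with a peak of all 4 libraries, by position relative to protein-coding genes; markers are medians, lines run from the lower to the upper quartile, and colours and marker shapes show libraries. Distal medians of 18.9, 11.6, 20.3 and 15.5 lie near those of gene bodies and near intergenic regions and below those of gene ends.

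The members at the very top were unlike the rest. A fold of at least 100 in every library was reached by 25 members (3.45%) against 17 of the other 3509 regions held by all libraries (0.484%), and at least 1000 by 13 members against 4 others. By class, the 17 were 7 of 404 near intergenic regions (1.73%), 5 of 1359 gene-body regions (0.368%) and 5 of 1746 gene-end regions (0.286%). The highest member was 1113 bp wide at chr2:98666230-98667342, 1034558 bp from Lrrc4c, with folds of 34553, 61857, 125093 and 31027, rank 1 in all 4 libraries. It stood among 4 members within 5115 bp. That stretch is known as a place where mm10 holds a fragment of satellite repeat.

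Of the 25, 8 were the last merged region of their chromosome, and 10 lay within 1000000 bp of the outermost peak. The last region of 12 of the 19 autosomes held peaks of all libraries and in 8 of them was distal, whereas the first region did so on 2. High folds at the last region were not limited to members. That of chromosome 3, at a gene end, had folds of 8810, 5881, 21521 and 7876. That of chromosome 12, near intergenic, had folds of 14726, 10021, 32274 and 12998. At the end of chromosome 14 (chr14:124801059-124802265, past Fgf14) the folds were 23518, 14209, 56608 and 19408. At the end of chromosome 7 (chr7:145340272-145341474, past Mrgprd) they were 21533, 11884, 49763 and 14518. The weakest of the 8, at the end of chromosome 10 past Vmn2r87, still had folds of 1068, 524, 2895 and 699. On ranks the libraries barely differed there, with 2 in all 4 libraries past Fgf14, 3 in all 4 past Mrgprd, and 22, 22, 21 and 21 past Vmn2r87. All members near outermost peaks came to 50 (6.91%), against 1.52% of distal merged regions.

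Other high members overlapped recognisable repeated or copied genes. At chr1:24611537-24616182, over the pseudogenes Gm10222 and Gm10925 in a known nuclear copy of mitochondrial DNA, folds were 1521, 3375, 3740 and 6543. The single mitochondrial peak of each list had folds of 3734, 9006, 13614.5 and 15130. The nuclear region ranked 20, 15, 19 and 9, with LSC replicate 2 highest. The region chr17:39842987-39848846, over Rn18s-rs5 and AY036118, copies of 45S ribosomal RNA sequence, had folds of 403, 571, 4975 and 605 and ranks of 31, 21, 18 and 22. The widest member, chr9:2999991-3038335 at the start of chromosome 9, had folds of 2059, 2282, 9029 and 1126 and headed a group of 10 members within 77254 bp.

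**Figure D4:**
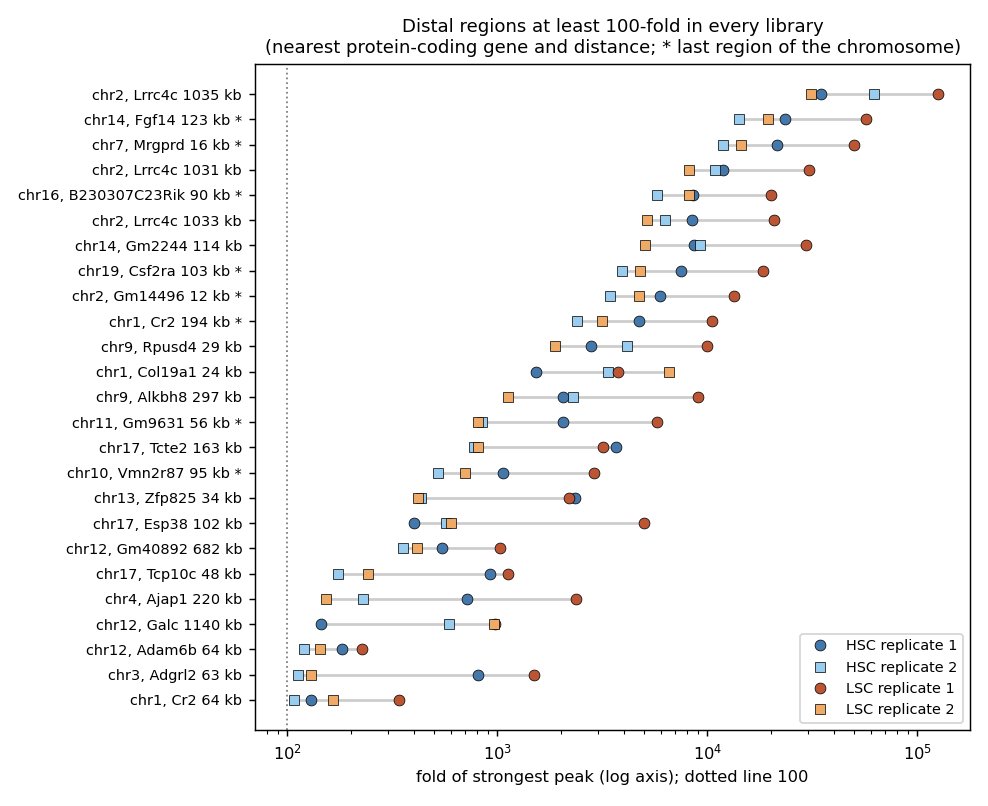
Fold of the strongest peak (log axis) in each library for the 25 distal regions with a fold of at least 100 in all 4 libraries, named by chromosome, nearest protein-coding gene and distance in kb; asterisks mark the last merged region of a chromosome. Folds reach 125093 in the region near Lrrc4c, and the fold has no common scale across libraries.

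Without these 25, the other 699 members had median folds of 18.04, 11.2, 19.8 and 14.6. Only 280 members reached 10-fold in every library, and 20 stayed under 10-fold in all of them. Removing the 25 changed neither the count of members with LSC above HSC (116 in place of 117) nor the reverse count (97 in place of 98) beyond 1 region each.

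Many members lay over non-coding genes. In all, 217 members (30.0%) overlapped a non-coding gene or pseudogene of the RefSeq table against 16.8% of all distal regions. Members are wider than other regions, and by their centre alone the shares were 22.8% and 16.2%. By overlap, lncRNA genes accounted for 169 members (23.3% against 13.9%), pseudogenes for 31 (4.28% against 2.07%) and ribosomal RNA genes for 10. Genes of tRNA, small nuclear RNA and small nucleolar RNA accounted for 5 each. For tRNA genes the share was 0.691% of members against 0.0195% of distal regions, and for ribosomal RNA genes 1.38% against 0.0128%. For small nuclear and small nucleolar RNA genes it was 0.691% of members each, against 0.0232% and 0.0552% of distal regions. By centre, 1 member lay in a tRNA gene and 0 in a ribosomal, small nuclear or small nucleolar RNA gene. These genes are much shorter than the members, so overlap and centre give very different counts. None of 1005 microRNA hairpins of the table lay in a member, and the matching count over all distal regions was not made.

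The largest group of members sat in the array of 5S ribosomal RNA genes, which encode the small RNA of the large ribosomal subunit. Chaining members no more than 50000 bp apart gave 594 groups, of which 528 were single members, 43 were pairs and 23 held 3 or more (110 members). The 5S group held 12 members at chr8:123546746-123623681 between Gas8 and Rhou, where the table lists 48 ribosomal RNA genes from 123538784 to 123622046. A base under all 4 libraries existed in 11 of the 12. Median folds were only 6.15, 8.89, 11.8 and 10.2, with the highest at 8.47, 19.7, 27.8 and 23.7. The array's median folds were below the member medians in all 4 libraries, while single members of it reached above them in every library but HSC replicate 1, and none of its members was among the 20000 strongest peaks in every library.

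Further groups lay over or beside genes of non-coding RNAs. At chr12:54709588-54731011, between Eapp and Snx6, all 3 members overlapped genes annotated as small nuclear RNA. All 3 were among the 20000 strongest in every library. The strongest (chr12:54709588-54715221) had folds of 411, 75.0, 207 and 164. In Snhg14, the imprinted host transcript of small nucleolar RNAs, 5 members at chr7:59753902-59779258 had highest folds of 74.6, 53.5, 51.2 and 34.1. At Malat1, 5 members at chr19:5786019-5820270 covered the gene body, the start site and DNA beyond it. At chr6:47755297-47778811, next to the Y RNA gene Rny3 and partly over the lncRNA Gm52862, 5 members all had a shared base, and the strongest had folds of 39.4, 56.1, 96.1 and 55.9.

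Within the immunoglobulin heavy chain locus (Igh), 4 members lay between constant-region genes or beside Ighm. The strongest, chr12:113423892-113425510, began 1162 bp past Ighm and ended 3004 bp before the joining segment Ighj4, with folds of 183, 120, 227 and 143. The others lay between Igha and Ighe (41.5, 16.5, 57.5 and 13.3), between Ighe and Ighg2c (31.2, 26.8, 26.2 and 28.8) and between Ighg2c and Ighg2b (35.3, 24.9, 57.3 and 21.4). Switch regions, the repeats used in antibody class switching, lie upstream of constant genes. Counting Igh with all gene segments and constant regions of the table, 0.552% of members overlapped one, against 0.304% of all distal regions. None of the 13 genes on a list of B cell markers was the nearest gene of a member. Their background was only 0.0407% of distal regions.

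Of the other groups, those past Cebpb and near Irf2bp2 were picked after their values were seen. Past Cebpb, a transcription factor of granulocyte and macrophage development, 4 members ran from 167746217 to 167779188 on chromosome 2. The member 69160 bp from Cebpb had folds of 74.6, 23.6, 185 and 32.6. The one 62953 bp away had 99.2, 27.9, 40.8 and 24.6, with both HSC ranks above both LSC ranks. The one 82513 bp away, which holds the printed Gm14321 window, had 45.9, 32.4, 110 and 23.9. All 3 were among the 20000 strongest in every library, though in the last no base lay under all 4 libraries. Near Irf2bp2 and Tomm20, 6 members spanned chr8:126757276-126909358, the strongest in the lncRNA A630001O12Rik, with folds of 85.8, 70.4, 137 and 49.1 and summits 936, 974, 957 and 621 bp past its start site.

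Nearest genes were counted against 12 lists of blood, leukaemia and stress genes. Nearest position does not show which gene a region acts on. Myeloid transcription factors were nearest to 8 members (1.10% of members against 0.463% of distal regions), namely Cebpb with 4 and Klf4, Runx3, Maf and Id2 with 1 each. Immediate early and signal response genes were nearest to 8 (1.10% against 0.232%), with 3 at Zfp36l2, a regulator of mRNA decay, and 1 each at Btg2, Ier5, Fosb, Klf6 and Dusp1. Haematopoietic stem cell transcription factors were nearest to 1 (0.138% against 0.283%) and MLL fusion targets to 2 (0.276% against 0.609%). Stem cell surface and signalling genes had 2, at Kit and Cxcr4 (0.276% against 0.104%). Granule and myeloid effector genes had 2, at Ly6c2 and Csf2ra (0.276% against 0.123%). T and NK cell genes had 2, at Gata3 and Tox (0.276% against 0.237%). The stroma and endothelium list had 0 against 0.191% of distal regions. The erythroid and megakaryocyte list and the B cell list had 0 against 0.00640% and 0.0407%, backgrounds so low that a count of 0 says nothing about them. The shares rest on few members and are given with no test.

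Among stem cell genes, the member 121692 bp from Kit, the receptor for stem cell factor, had folds of 16.7, 12.2, 25.8 and 18.4. The member 21150 bp from Cxcr4, the receptor that holds stem cells in the marrow, had 32.8, 22.1, 88.0 and 15.9. The one 11426 bp from Lmo2, an adaptor of stem cell transcription factors and an MLL fusion target, had 16.9, 5.24, 32.0 and 22.7. At Kit and Lmo2 both LSC ranks were above both HSC ranks, while at Cxcr4 the LSC replicates stood at opposite ends. The member 21107 bp from Ly6c2, a monocyte surface marker, was among the strongest named here outside the chromosome ends, with folds of 147, 83.7, 432 and 111. The member past Csf2ra was the last region of chromosome 19, with folds of 7522, 3929, 18322 and 4774.

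Ferroptosis and the nuclear pore are named in the series' title. Genes of the ferroptosis and iron list were nearest to 3 members, and no listed nucleoporin was nearest to any. Of the ferroptosis and iron list, Fth1, the ferritin heavy chain, was nearest to 2 members and Ptgs2, an enzyme often read as a ferroptosis marker, to 1 (0.414% against 0.131% of distal regions). The farther Fth1 member (36893 bp) had folds of 14.8, 5.24, 20.3 and 10.8 and no base shared by all libraries, and the groups overlapped. The nearer Fth1 member (25248 bp) had folds of 16.4, 10.3, 32.8 and 30.1 and no base shared by all libraries. Both LSC ranks of the nearer member were above both HSC ranks. The Ptgs2 member, 56188 bp away, had folds of 20.8, 15.9, 11.9 and 17.2 and stood the other way, with ranks of 2105.5 and 1994 in HSC and 3054 and 2528 in LSC. Of 22 nucleoporins and members of Ruvbl2 complexes, Yy1, a DNA-binding partner of INO80, was nearest to 1 member (0.138% against 0.0141% of distal regions), 25576 bp away at chr12:108764443-108767369. Its folds were 41.8, 38.4, 46.3 and 44.5, its ranks were 892.5, 473, 1119.5 and 762, and a base lay under all 4. The Yy1 member was in the stronger part of the 4233 regions in every library, and the groups overlapped. Outside the list, and picked after its values were seen, the nucleoporin gene Nup35 was nearest to a member 152844 bp away. That member had folds of 7.93, 8.42, 19.9 and 20.5. No base of the Nup35 member was shared by all libraries, and both LSC ranks were above both HSC ranks. The same held in 14.7% of the 4233 regions of all positions. The share of distal regions nearest to Nup35 was not counted.

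HSC and LSC libraries did not separate over the members as a whole. Both LSC ranks were above both HSC ranks in 117 members (16.2%), against 622 of the 4233 regions of all positions (14.7%). The reverse held in 98 members (13.5%), against 634 of the 4233 (15.0%). The shares lie near those of all regions, so they are no result particular to distal DNA. The median rank of the members was 2299, 2691.5, 2183 and 2727, which parted the libraries by replicate number and not by group. The LSC mean differed from the HSC mean by -40.25 places (exact two-sided permutation test, p = 1; the smallest p for 2 against 2 is 0.33). Within replicate 1, LSC was above HSC in 368 members and below in 349, and within replicate 2 above in 340 and below in 377. LSC was above in 50.8% and 47.0% of members, against 49.4% and 49.9% of regions of all positions. In members with a shared base that were also among the 20000 strongest in every library, the counts were 11 with LSC above (9.65%) and 10 with HSC above (8.77%), of 114. Other regions that met both conditions had 87 (13.8%) and 83 (13.2%) of 629.

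The members with the widest gaps between the groups are given as descriptions. With LSC above, the region 22370 bp from Slc9a8, a sodium-proton exchanger (chr2:167397795-167399229), had folds of 5.74, 3.56, 137 and 25.4 and ranks of 4067, 4220, 142 and 1695. The region near Uncx had folds of 9.84, 5.99, 66.4 and 28.2, and that near Cdk17 had 9.84, 8.05, 58.4 and 26.5. Near Uncx the ranks were 3556.5, 3759.5, 700 and 1514.5, and near Cdk17 they were 3556.5, 3388, 854.5 and 1628.5. In these 3 the HSC libraries ranked the region in the weaker part of the 4233, and LSC replicate 1 ranked it above LSC replicate 2. The region near Ly96, a partner of the receptor Tlr4, had folds of 13.9, 10.3, 45.2 and 32.4. A group of tRNA genes near Trim55 (chr3:19627966-19629592) had folds of 15.9, 11.04, 87.1 and 36.8.

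With HSC above, the region 97264 bp from Tomm20 (chr8:126831858-126833400) had folds of 61.0, 37.4, 16.3 and 15.7, with ranks of 405, 499.5, 2551 and 2703.5. It belongs to the group near Irf2bp2 and Tomm20, whose strongest member had ranks of 179.5, 133.5, 141 and 622.5, so the groups overlapped there. The region near Ttc29 had folds of 66.1, 15.5, 4.58 and 3.60 and ranks of 342.5, 2056, 4061 and 4230, with HSC replicate 1 far above the rest. The region near 4930467E23Rik had 23.8, 18.3, 3.84 and 8.26, that near Gm52008 18.9, 17.8, 5.31 and 6.35, and that near Irx5, a homeobox gene, 16.4, 18.9, 4.58 and 4.87. Of the 10 regions with the widest gaps, 6 had no base under peaks of all 4 libraries, and none was among the 20000 strongest in every library.

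**Figure D5:**
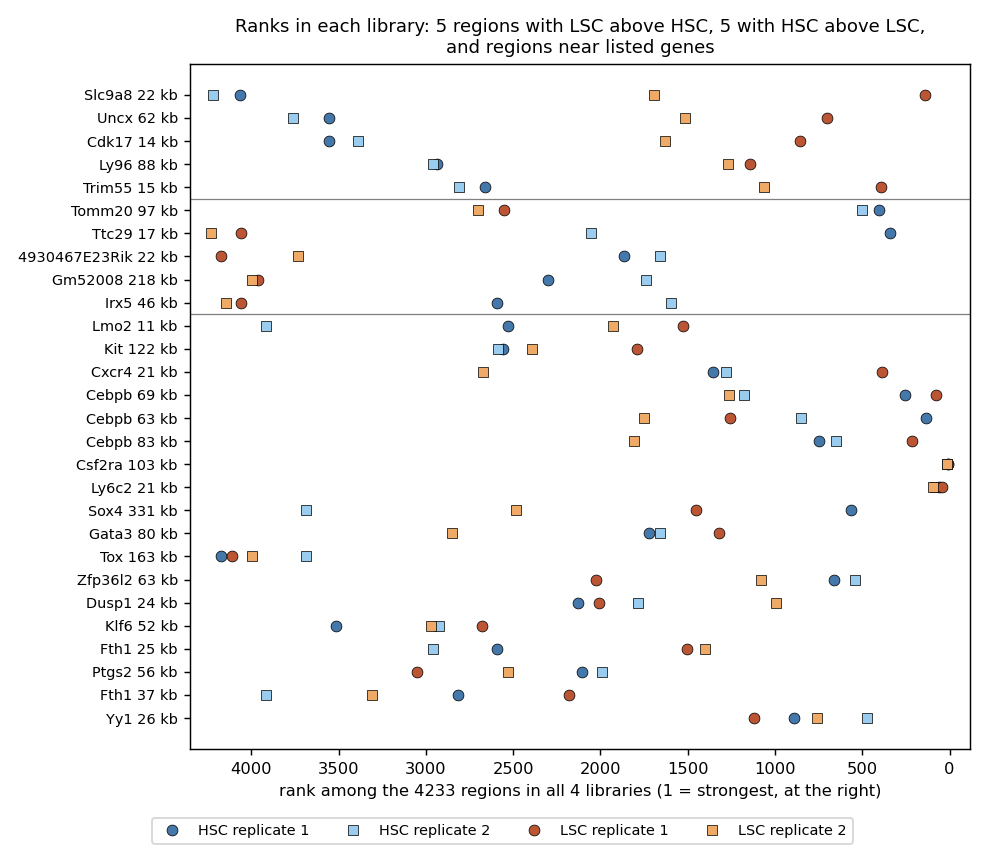
Rank of the strongest peak in each library among the 4233 regions held by all libraries (1 is strongest, at the right), for the 5 members with the widest gap in each direction and for members near listed genes, named by nearest gene and distance in kb. Groups are apart in the upper 10 by choice; near Yy1 all ranks lie between 473 and 1119.5.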

How the data were processed

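CUT&Tag libraries for Ruvbl2 from 2 HSC and 2 LSC samples were read as the authors' peak lists, called per library. Per the submitters' processing notes, the tools were FastQC 0.11.5, Bowtie2 2.2.9, MACS2 and ChIPseeker, and the build was mm10. For calling thresholds, duplicate handling and read depth, nothing is given in the sources used. The deposited fold is a ratio of summit pileup to background. Each deposited peak also has a −log10 p and a −log10 q value, and the deposited score is the −log10 q in whole numbers. Fold served to rank peaks and −log10 p to pick the 20000 or 100000 strongest.

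Peaks on chromosomes 1 to 19 were merged at 1 bp (Python 3.11.15, numpy 2.4.6, pandas 2.3.3). The merge gave the same 690059 regions with bedtools 2.31.1. Genes came from a RefSeq table of GRCm38.p6 with 20665 protein-coding and 26377 other genes. The merging and ranking were tested on simulated data. A region separated the groups when the ranks of both libraries of one group were above both of the other. Exact permutation tests used libraries as units. Regions on chromosome 18 were counted and not named. The members and gene lists were chosen with earlier results of these data known. Named regions were those with the best worst rank, the widest gaps between groups, the widest, the farthest, those at the distance limit, and those over non-coding genes or near listed genes. Groups of members, chromosome ends, promoter windows and the Nup35 member were chosen after their values were seen. Alternatives are given in the closing section. No genome sequence was used here, so region sequences are not shown.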

Additional observations from a re-analysis of the deposited data

Results flagged for a closer look

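Chromosome X was outside the comparisons and carried the same kind of region. Of 16280 distal merged regions on X, 18 held a peak of all 4 libraries (0.111%, against 0.244% on the autosomes), and there is no control library to set beside them. The strongest lay 79420 bp from Asmt, with folds of 5657, 2977, 12159 and 3754 in the HSC and then the LSC libraries, by replicate number. A neighbour 201867 bp from Asmt had folds of 1640, 709, 4099 and 932. Several others lay among the Btbd35f genes, a family in many copies, and the strongest of those near Btbd35f29 by its weakest library had folds of 26.5, 24.0, 24.0 and 18.6.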

How the results depend on the processing

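Values are given as members, then members with LSC above HSC, then members with HSC above LSC, against 724, 117 and 98. They were 117, 13 and 11 from the 20000 strongest peaks, 292, 45 and 37 from the 100000 strongest, 345, 49 and 44 at a distance over 50000 bp, 356, 62 and 47 with every gene of the table in place of protein-coding ones, and 164, 18 and 15 with windows of 100 bp on each side of summits. A distance over 5000 bp (887, 142 and 127) and regions up to 2000 bp wide (536, 86 and 68) stayed within 1.5 times.

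Leaving out 1 library asks for a peak in 3, which loosens the rule by construction. Members then numbered 1275 to 2313, those with LSC above 342 to 798, and those with HSC above 492 to 730. Leaving out an HSC library gave 2313 members (replicate 1) or 1275 (replicate 2), and leaving out an LSC library gave 1900 (replicate 1) or 1610 (replicate 2). With LSC above they numbered 798, 342, 531 and 598 in that order, and with HSC above 609, 504, 730 and 492, so which direction was more frequent changed with the library left out. With the replicate block, where LSC is compared with HSC within each replicate number, 170 members (23.5%, all positions 24.9%) had LSC above and 178 (24.6%, all positions 25.3%) had HSC above at both numbers. Whether the numbers pair the samples is not stated in the labels. Ranking by −log10 p gave the same counts of 117 and 98, and the same shares over all positions, as ranking by fold, so it adds no separate check. Ranking by summed width or among members alone kept both counts within 1.5 times.

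Alternatives chosen after seeing the data included a base under all 4 libraries, which left 366 members. Another left out members at least 100-fold in every library (116 and 97). The rest were the comparison of classes on −log10 p and further shifts. On −log10 p the classes gave the same 921.5 places (SD 572) as on fold, so that comparison adds no separate check. The median shifted count of 168 became 404.5 with replicate numbers moved together, 22 with a shared base, 81.5 with both of these, 0 from the 20000 strongest peaks and 4 from those with replicate numbers moved together. The shift together was planned. Read depth and a control library, which would show how firmly each peak is called, were not used here.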
